A study of Homo sapiens with 15 samples.

Results

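The genes described here are the class IIa lysine deacetylases HDAC4, HDAC5, HDAC7 and HDAC9 and the transcription factors MEF2A, MEF2C and MEF2D, which class IIa deacetylases bind. They were chosen by symbol, as 7 of the 60675 genes with deposited counts, with lower HDAC5 and HDAC9 in treated 6CD2m cells, relative to treated 8CDm cells, already known. That difference is therefore given as a description, without a test. Every other comparison with 8CDm or 6CD2m cells uses libraries of that contrast again, so its tests and counts of members, above all for HDAC5 and HDAC9, are not independent of how the genes were chosen. All 7 passed the filter on low counts that left 19535 genes for testing. The cells were HT1080, a human fibrosarcoma line, in which the study asked how transcription under an inhibitor compares with that of cells whose endogenous deacetylase carries an inactivating missense mutation made by CRISPR/Cas9. 6CD1m cells (HDAC6 H216A, first catalytic domain) and 6CD2m cells (HDAC6 H611A, second catalytic domain) were treated with 1 µM Tubastatin A, an inhibitor of HDAC6, for 2 days. 8CDm cells (HDAC8 H143A) were treated with 5 µM PCI-34051, an inhibitor of HDAC8, for 2 days. WT cells were treated with either inhibitor at the same dose for 14 days. Each of the 5 groups had 3 libraries, every group received an inhibitor, and untreated cells were not analysed here. In each comparison of a mutant line with WT cells the line and the duration of treatment cannot be told apart, and between 8CDm cells and either HDAC6 line the line and the inhibitor cannot be told apart.

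Class IIa deacetylases have little deacetylase activity of their own on acetyl-lysine. They act mainly as scaffolds that bring corepressors to DNA-bound factors, of which the MEF2 proteins are the best known. Phosphorylation by calcium-dependent kinases, protein kinase D and salt-inducible kinases creates binding sites for 14-3-3 proteins, which keep the deacetylases in the cytoplasm and leave MEF2 free to activate its targets. MEF2 proteins bind as dimers to an AT-rich element and are known for driving muscle gene expression and, in many other cells, immediate early genes such as the NR4A nuclear receptors.

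Library totals on genes ran from 10932437 to 19983699, with the 3 smallest in 6CD1m cells (at most 14068212, against at least 15213257 elsewhere). Pearson's r between replicates, over genes on the log2 scale, was 0.962 to 0.988, and the biological coefficient of variation was 16.4%. The mesenchymal markers VIM, FN1, SPARC and CD44 were at 340.5 CPM or above in every library (CPM, the count per 1000000 counts of the TMM-scaled library), whereas COL1A1 reached 12.4 CPM and COL1A2 1.85 CPM at most. EPCAM, KRT5 and PTPRC never exceeded 1 count. Of 14 markers of other cell types only CD68 and SNAP25 were above 3 CPM in every library, and the sum of the 14 ran from 37.0 to 75.3 CPM in 6CD1m, 57.4 to 61.7 in 6CD2m, 76.3 to 87.8 in 8CDm, 82.6 to 127 in PCI-34051-treated WT and 98.4 to 126 in Tubastatin A-treated WT cells. The summed level of 8 mesenchymal markers was 4992 to 5661 CPM in 6CD2m libraries, below every other library (5789 to 9444). The part of these markers in the results was not tested. The HDAC6 gene itself was counted at 12.4 to 14.2 CPM in 6CD1m libraries, 22.9 to 25.1 in 6CD2m and 17.9 to 34.2 in the others, and HDAC8 at 17.0 to 19.8 CPM in 8CDm and 12.6 to 19.1 elsewhere. Counts per gene cannot show a single-codon edit, so these values check nothing about the labels.

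Each member was counted in every library, at between 25 and 136 reads for MEF2C and 353 or more for each of the others. To compare levels between genes, CPM were divided by the length of all exons in kb (GENCODE 29, GRCh38). Among the class IIa genes HDAC7, which is best known from endothelial cells and thymocytes, had the highest mean level per kb in 4 groups. It stood at 13.0 ± 3.23 CPM per kb (SD, n = 3) in 6CD1m, 8.46 ± 0.435 in 6CD2m, 13.0 ± 1.97 in PCI-34051-treated WT and 9.58 ± 1.27 in Tubastatin A-treated WT cells. In 8CDm cells HDAC5, a calcium-regulated repressor in heart and neurons, was the highest instead, at 11.7 ± 0.355 CPM per kb against 10.2 ± 0.445 for HDAC7. HDAC9 ran from a mean of 2.29 CPM per kb in 6CD1m to 5.45 in 8CDm cells, and HDAC4, whose loss causes premature ossification of cartilage, from 1.56 in 6CD2m to 3.07 in PCI-34051-treated WT cells.

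The summed level of the class IIa genes was 29.4 ± 0.716 CPM per kb in 8CDm cells and 17.9 ± 0.299 in 6CD2m cells, the highest and the lowest means of the 5 groups. It was 27.4 ± 2.50 in PCI-34051-treated WT, 24.5 ± 4.20 in 6CD1m and 23.2 ± 1.65 in Tubastatin A-treated WT cells. The 8CDm libraries (28.7 to 30.2) overlapped those of PCI-34051-treated WT (up to 29.2) and 6CD1m cells (up to 29.3). 8CDm and 6CD2m cells form the contrast known when the genes were chosen. HDAC5 made up 39.8% ± 0.775 of that sum in 8CDm cells, against group means of 26.6% to 32.6% in the other 4 groups, while HDAC7 made up 34.7% ± 0.716 against 41.2% to 52.6%. Among the MEF2 genes MEF2D accounted for most of the summed level in every group, 69.5% ± 0.632 in 8CDm cells, and MEF2C for at most 1.86% in any library. The MEF2 sum was 39.6 ± 0.122 CPM per kb in 8CDm cells. It was 21.0 ± 1.24 in 6CD1m, 22.1 ± 0.320 in 6CD2m, 25.9 ± 1.23 in PCI-34051-treated WT and 25.9 ± 0.724 in Tubastatin A-treated WT cells. The plot of stacked levels per kb shows both shifts, the tall MEF2 bar and the wide HDAC5 segment of 8CDm cells.

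**Figure D1:**
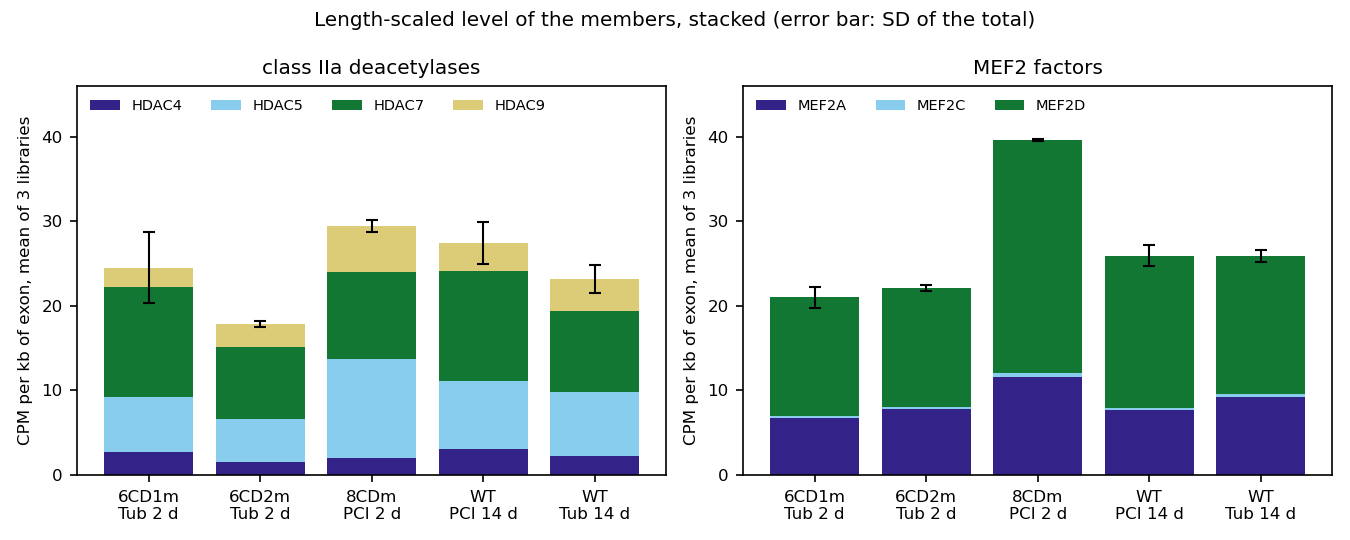
Stacked mean levels of the class IIa deacetylase genes (left) and MEF2 genes (right) in CPM per kb of exon, by group (3 libraries each), with the SD of the total as error bar. The MEF2 total was 39.6 CPM per kb in 8CDm cells and at most 25.9 in the other groups, and HDAC5 (light blue, left) formed 39.8% of the class IIa total in 8CDm cells.

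HDAC9 binds MEF2 and is itself transcribed under MEF2 control in muscle. Its gene lies at chr7:18086949-19002416 on the plus strand. It was counted at 93.7, 89.5 and 92.0 CPM in the 8CDm libraries, 72.4, 60.0 and 61.3 in Tubastatin A-treated WT, 60.4, 50.4 and 54.7 in PCI-34051-treated WT, 40.7, 44.5 and 52.7 in 6CD2m and 34.3, 38.9 and 42.6 in 6CD1m cells. The 8CDm libraries lay above the other 12, and each of the lower groups overlapped the next in that order. MEF2A, the family member at chr15:99565417-99716466 (plus strand), had 82.2, 78.2 and 79.8 CPM in 8CDm libraries, 69.4, 61.5 and 60.9 in Tubastatin A-treated WT, 52.6, 55.4 and 53.0 in 6CD2m, 62.4, 45.4 and 52.2 in PCI-34051-treated WT and 39.8, 44.1 and 55.4 in 6CD1m cells. The 8CDm libraries were again above the other 12, and the Tubastatin A-treated WT libraries were above those of 6CD2m without overlap.

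Promoter windows were searched for CTANNNNTAG, a form of the core of the MEF2 element with free centre bases and fixed ends. It reads the same on both strands, and sites with other bases at the ends were not searched for. The windows ran from 250 bases before to 50 after each RefSeq start (GRCh38.p14), and 6 of the 7 members had at least 1. HDAC9 (1 of 5 start sites) and MEF2A (1 of 3) held a match, and HDAC4 (5 start sites), HDAC7 (1), MEF2C (7) and MEF2D (1) did not. Among all genes with a window 3.38% held the motif, or 2.73% of 35116 windows. The matches are shown because HDAC9 and MEF2A had the most similar pattern over libraries of any class IIa and MEF2 pair, with the motif in capitals. In HDAC9 it lies across the start site, beginning 8 bases before it, and in MEF2A it begins 23 bases before the start. A match of letters is a description and does not show that MEF2 binds there.
HDAC9 promoter, chr7:18086737-18086844, plus strand: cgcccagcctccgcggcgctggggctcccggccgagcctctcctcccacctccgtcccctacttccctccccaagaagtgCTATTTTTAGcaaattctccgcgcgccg
MEF2A promoter, chr15:99565881-99566003, plus strand: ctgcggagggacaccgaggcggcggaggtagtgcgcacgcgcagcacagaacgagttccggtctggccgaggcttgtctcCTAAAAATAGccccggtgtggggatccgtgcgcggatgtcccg
The matched bases were CTATTTTTAG in HDAC9 and CTAAAAATAG in MEF2A, both with an uninterrupted A/T centre.

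HDAC5 lies at chr17:44076746-44123702 on the minus strand. It was counted at 88.4, 92.2 and 87.0 CPM in 8CDm, 58.1, 63.2 and 62.2 in PCI-34051-treated WT, 55.1, 56.9 and 60.6 in Tubastatin A-treated WT, 56.7, 45.6 and 45.7 in 6CD1m and 40.0, 40.2 and 36.6 in 6CD2m cells. The 8CDm libraries were the 3 highest of the 15 and the 6CD2m libraries the 3 lowest, and the 3 groups between them overlapped as neighbours. MEF2D, at chr1:156463727-156500828 on the minus strand, is the most widely expressed MEF2 gene. It had 174, 178 and 176 CPM in 8CDm, 114, 115 and 116 in PCI-34051-treated WT, 94.3, 105 and 112 in Tubastatin A-treated WT, 89.5, 91.0 and 90.5 in 6CD2m and 91.9, 87.2 and 90.6 in 6CD1m cells. Apart from the 2 HDAC6 lines, which overlapped, no neighbouring groups in this order overlapped.

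HDAC4 (chr2:239048168-239401654, minus strand) ran differently. It was counted at 33.6, 44.2 and 45.2 CPM in PCI-34051-treated WT, 41.8, 36.6 and 30.9 in 6CD1m, 24.0, 32.1 and 32.6 in Tubastatin A-treated WT, 24.4, 28.3 and 29.1 in 8CDm and 20.9, 21.0 and 20.5 in 6CD2m cells. The 6CD2m libraries were the 3 lowest of the 15 and the other groups overlapped their neighbours. HDAC7 (chr12:47782722-47833132, minus strand) had 107, 145 and 136 CPM in PCI-34051-treated WT, 165, 117 and 105 in 6CD1m, 96.6, 105 and 102 in 8CDm, 84.5, 92.0 and 109 in Tubastatin A-treated WT and 88.9, 82.3 and 80.7 in 6CD2m cells. Each group overlapped the next. MEF2C (chr5:88717117-88904257, minus strand), the MEF2 gene of heart, brain and B cells, was the least expressed member, at 5.75, 7.37 and 5.21 CPM in 8CDm, 5.53, 4.60 and 3.70 in Tubastatin A-treated WT, 2.10, 4.07 and 3.69 in 6CD1m, 2.90, 2.74 and 2.84 in 6CD2m and 2.77, 1.90 and 3.16 in PCI-34051-treated WT cells. Its highest mean was in 8CDm cells, where the lowest library was below the highest of Tubastatin A-treated WT cells.

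**Figure D2:**
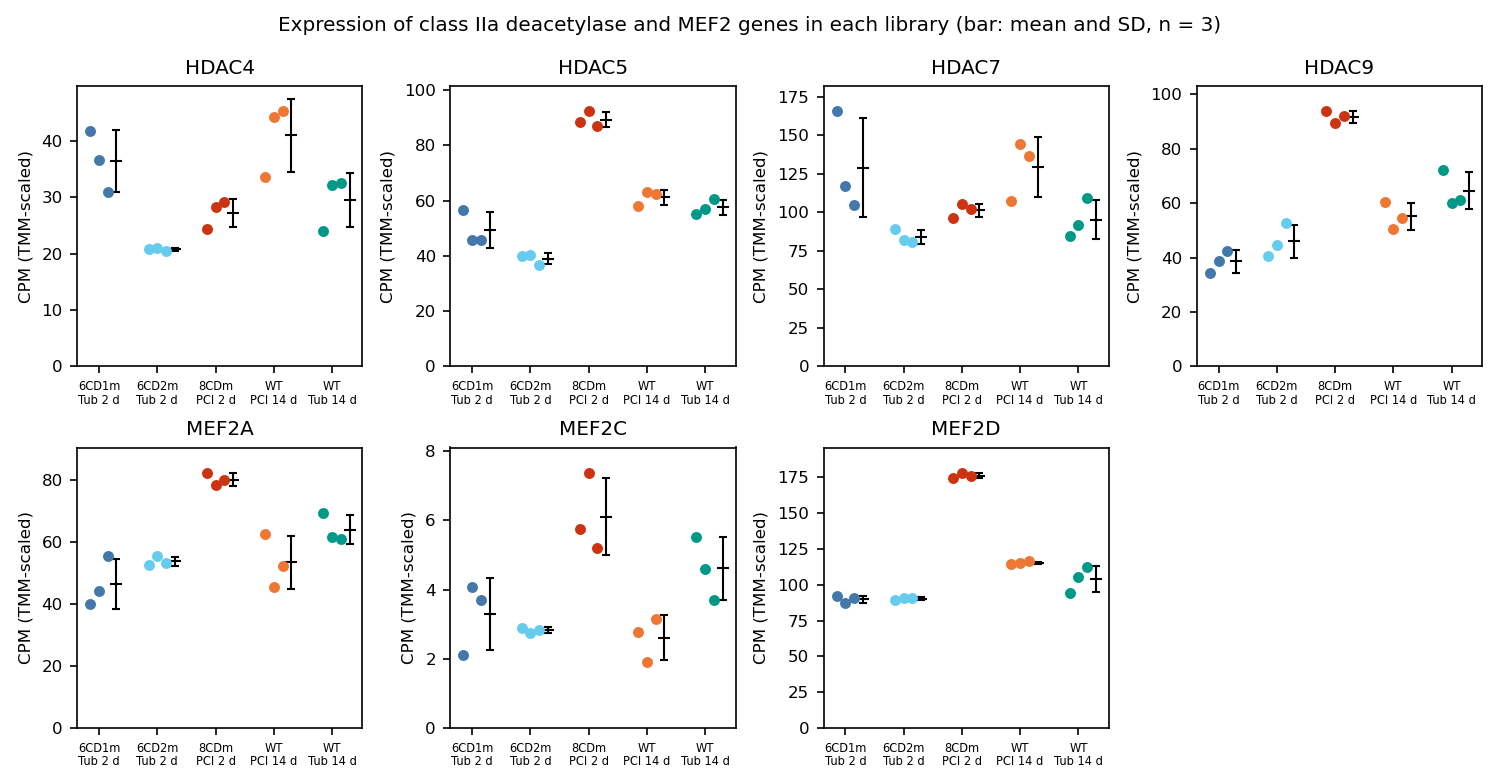
CPM on TMM-scaled libraries (linear axis from 0) of each member in the 15 libraries, by group, with 1 point per library and the group's mean and SD (n = 3) beside the points. In 8CDm cells HDAC5, HDAC9, MEF2A and MEF2D lay above all 12 other libraries, and in 6CD2m cells HDAC4 and HDAC5 lay below all 12 others.

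PCI-34051-treated 8CDm cells were compared with WT cells on the same inhibitor. HDAC5, HDAC9 and MEF2D were higher in 8CDm cells, by 1.46-, 1.66- and 1.53-fold. These 3 of the 7 members passed the study's false discovery rate of 0.001 in edgeR's quasi-likelihood test, in which 11% of all tested genes did. The 8CDm libraries are those in which HDAC5 and HDAC9 were already known to be high, so nothing is read from the count. The log2 fold changes were 0.54 ± 0.09 (SE, adjusted p = 0.00045) for HDAC5, 0.73 ± 0.12 (adjusted p = 0.00021) for HDAC9 and 0.61 ± 0.08 (adjusted p = 2.5e-05) for MEF2D. In bulk RNA, fewer cells that express a gene cannot be told apart from less RNA per cell. MEF2A (0.58 ± 0.13, adjusted p = 0.0022), MEF2C (1.22 ± 0.26, adjusted p = 0.002), HDAC4 (-0.59 ± 0.15, adjusted p = 0.006) and HDAC7 (-0.35 ± 0.15, adjusted p = 0.085) did not pass. The libraries of the groups did not overlap for any of the 7 members, which held for 48.1% of all genes tested, and the members' median log2 fold change was 0.58 against -0.04 over all genes. The MEF2D call was kept without any 1 of the 6 libraries. The HDAC5 call was lost without any 1 of them (adjusted p of 0.0013 to 0.0029), and also under upper-quartile normalization (0.0029), with at least 10 counts in every library (0.0017) and in a fit of the 6 libraries alone (0.002). That of HDAC9 was lost without any 1 except the first PCI-34051-treated WT library (0.0002 to 0.0019). MEF2A passed without that WT library (adjusted p = 0.00047), under upper-quartile normalization, with at least 10 counts in every library, without a filter and in DESeq2.

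Base composition moved with these values. The members fall on both sides of the median GC content of tested genes (48.2%), with HDAC4 (55.1%), MEF2D (56.8%), HDAC7 (57.7%) and HDAC5 (61.2%) above it and MEF2C (39.0%), HDAC9 (40.2%) and MEF2A (41.3%) below. Between libraries, log2 expression relative to the mean library changed with GC content by between -0.17 (the first Tubastatin A-treated WT library) and 0.32 (the first 6CD1m library) per 10 points of GC. The other 2 PCI-34051-treated WT libraries, replicates 2 and 3, had 0.26 and 0.22, and the 8CDm libraries -0.15 to -0.09. With offsets that remove each library's dependence on GC, the log2 difference between 8CDm and WT cells on PCI-34051 became 0.90 ± 0.09 for HDAC5 (adjusted p = 1e-06) and 0.88 ± 0.09 for MEF2D (1.8e-06). It became 0.42 ± 0.08 for HDAC9, which no longer passed (0.001, unrounded above the threshold), and 0.33 ± 0.08 for MEF2A (0.0036). It was -0.05 ± 0.08 for HDAC7 (0.67). HDAC5 and MEF2D thus gained and the AT-rich members lost in size under the offsets, with the sign of all 7 kept.

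**Figure D3:**
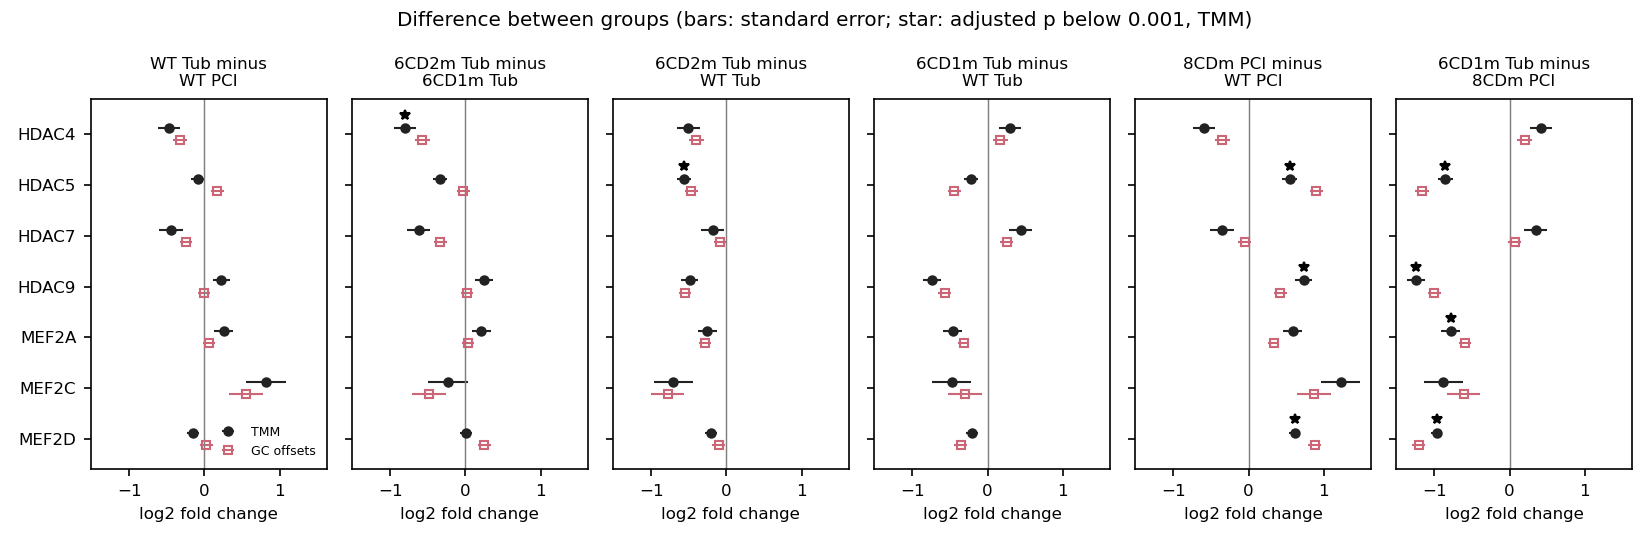
Log2 fold change of each member in the 6 comparisons tested, on TMM-scaled counts (filled circles) and with GC offsets (open squares), with standard errors; stars mark an edgeR adjusted p below 0.001 on the TMM scale. In the comparison of 8CDm with WT cells on PCI-34051, HDAC5 went from 0.54 to 0.90 and HDAC9 from 0.73 to 0.42 with the offsets.

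Tubastatin A-treated 6CD1m cells were compared with PCI-34051-treated 8CDm cells, which are the same libraries that were set against WT cells above. HDAC9 was 2.37-fold, MEF2D 1.96-fold, HDAC5 1.81-fold and MEF2A 1.72-fold lower in 6CD1m than in 8CDm cells. These 4 of 7 members passed, against 11.1% of all genes tested. The 8CDm libraries are again those in which HDAC5 and HDAC9 were already known to be high, so nothing is read from the count. The log2 fold changes were -1.25 ± 0.12 for HDAC9 (edgeR adjusted p = 1.5e-06), -0.97 ± 0.08 for MEF2D (2.7e-07), -0.85 ± 0.10 for HDAC5 (7.9e-06) and -0.78 ± 0.13 for MEF2A (0.00024). With GC offsets they were -1.002, -1.21, -1.17 and -0.59, and all 4 passed. MEF2C (-0.88 ± 0.26, adjusted p = 0.015), HDAC4 (0.42 ± 0.15, 0.038) and HDAC7 (0.35 ± 0.15, 0.087) did not. Libraries did not overlap for 6 members, all except HDAC7 (50.7% of all genes). The MEF2A call was lost without any 1 library except the third 6CD1m library (adjusted p of 7.6e-05 to 0.0025), and those of HDAC5 and MEF2A in a fit of the 6 libraries alone (0.001, unrounded above the threshold, and 0.0017).

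In 6CD2m on Tubastatin A relative to 8CDm on PCI-34051, the contrast with which members were chosen, the log2 differences were -1.20 for HDAC5 and -0.996 for HDAC9. The others were -0.96 for MEF2D, -1.11 for MEF2C, -0.58 for MEF2A, -0.39 for HDAC4 and -0.27 for HDAC7. All 7 were negative and no libraries overlapped, as for 51.6% of all genes (9.96% of all genes passed the threshold in this contrast). GC offsets moved each of the 7 by less than its standard error. The GC slopes of the 6 libraries lay between -0.15 and -0.07 per 10 points.

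The difference between a mutant line on 2 days of inhibitor and WT cells on 14 days was then compared between 6CD1m and 8CDm cells. It was taken as (6CD1m minus WT on Tubastatin A) minus (8CDm minus WT on PCI-34051). Mutant line and inhibitor change together between these 2 differences and cannot be told apart. For HDAC9 the difference of differences was -1.48 ± 0.16 on the log2 scale (edgeR adjusted p = 2e-05). Its components were -0.74 on Tubastatin A and 0.73 on PCI-34051. MEF2A (-1.05 ± 0.18, adjusted p = 0.0007), MEF2D (-0.82 ± 0.11, 8.8e-05) and HDAC5 (-0.77 ± 0.13, 0.00084) also passed, so that 4 of 7 members did, against 5.42% of all genes. The 8CDm libraries used here belong to the contrast known when the genes were chosen, so nothing is read from the count. In each of these 4 the component was negative for 6CD1m and positive for 8CDm cells. None of the 6CD1m components passed on its own. They were -0.46 for MEF2A (edgeR adjusted p = 0.036), -0.21 for MEF2D (0.086) and -0.22 for HDAC5 (0.13), with HDAC9 at 0.0014. The 8CDm components of MEF2A, MEF2D and HDAC5 were 0.58, 0.61 and 0.54. In the difference of differences HDAC4 and HDAC7 had the other sign (0.89 ± 0.21, adjusted p = 0.0053, and 0.79 ± 0.22, 0.012) and MEF2C was at -1.70 ± 0.37 (0.0033), none of which passed. HDAC9 passed under every alternative and without any 1 of the 12 libraries, and MEF2D under all except upper-quartile normalization (adjusted p = 0.0012). Blocked on replicate number, HDAC5 (-0.77, adjusted p = 0.0032) and MEF2A (-1.05, 0.0022) did not pass, which left 2 members. Same-numbered libraries of the 2 WT groups deviated together, but the block gives each replicate number the same effect in all 5 groups. Same-numbered 6CD1m and Tubastatin A-treated WT libraries deviated with r of -0.41, -0.09 and -0.26. Whether the block belongs in this difference was not tested. HDAC5 was also lost under upper-quartile normalization (0.01), without a filter (0.001, unrounded above the threshold), with at least 10 counts in every library and in a fit of the 12 libraries alone (0.0025), and MEF2A in that last fit (0.002) and with GC offsets and the block together (0.0018). HDAC5 and MEF2A each passed in 2 of the 12 fits without 1 library (adjusted p of 0.0001 to 0.0031 and 0.00014 to 0.0032). HDAC5 was kept without the first 6CD1m or the first PCI-34051-treated WT library, MEF2A without the third 6CD1m or that WT library. HDAC4 passed without that WT library (0.00091).

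The 2 HDAC6 lines, both on Tubastatin A for 2 days, differed in HDAC4, which was 1.75-fold lower in 6CD2m than in 6CD1m cells (log2 fold change -0.80 ± 0.15, edgeR adjusted p = 0.00065). This was 1 of 7 members, against 13.2% of all genes. HDAC7 (-0.62 ± 0.15, adjusted p = 0.0054) and HDAC5 (-0.34 ± 0.10, 0.011) did not pass. HDAC9 (0.25 ± 0.12, 0.1), MEF2A (0.21 ± 0.13, 0.2), MEF2C (-0.23 ± 0.27, 0.51) and MEF2D (0.01 ± 0.08, 0.96) overlapped between the lines, so that libraries stood apart for HDAC4, HDAC5 and HDAC7, 3 of 7 against 51.7% of all genes. With GC offsets HDAC4 stayed past the threshold at -0.57 ± 0.10 (adjusted p = 0.00032), while HDAC5 came to -0.03 ± 0.09. HDAC7 came to -0.33 ± 0.08 (0.0047). Without 1 library the HDAC4 call was kept only when the third 6CD1m library was left out (0.00057) and lost otherwise (up to 0.0042). It was also lost under upper-quartile normalization, with at least 10 counts in every library, and in a fit of these 6 libraries alone (adjusted p of at most 0.0028).

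Against WT cells on Tubastatin A, 6CD2m cells had 1.48-fold less HDAC5 RNA (-0.56 ± 0.10, edgeR adjusted p = 0.00033), the only member past the threshold, where 11.8% of all genes were. Low HDAC5 in these 6CD2m libraries was known when the genes were chosen, so this value is not independent evidence, and the mesenchymal marker sum was also lower in them than in WT cells (at most 5661 against at least 7729 CPM). Its part in the difference was not tested. HDAC9 (-0.49 ± 0.12, adjusted p = 0.0043), HDAC4 (-0.51 ± 0.15, 0.016), MEF2C (-0.71 ± 0.26, 0.048) and MEF2D (-0.20 ± 0.08, 0.054) did not pass. MEF2A (-0.25 ± 0.13, 0.14) and HDAC7 (-0.18 ± 0.15, 0.41) did not either. All 7 differences were negative and libraries did not overlap for 6 members, all except HDAC7 (50% of all genes), with a median log2 difference of -0.49 against -0.01 over all genes. With GC offsets HDAC5 (-0.47, adjusted p = 0.00051) and HDAC9 (-0.55, 8.7e-05) passed. The HDAC5 call was lost without any 1 of the 6 libraries (adjusted p of 0.0012 to 0.0033), under upper-quartile normalization (0.0044) and with at least 10 counts in every library (0.0014).

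6CD1m cells on Tubastatin A shared these WT libraries as their control. No member passed in edgeR against 0.793% of all genes, while 5 members were at an unadjusted p below 0.05, as were 6248 genes in all. The member nearest the threshold was HDAC9 (-0.74 ± 0.12, adjusted p = 0.0014), which passed in DESeq2 (1 member), without a filter on low counts and with GC offsets (-0.57, adjusted p = 0.00054). HDAC9 did not overlap between the groups, nor did MEF2A (-0.46 ± 0.13, 0.036) and MEF2D (-0.21 ± 0.08, 0.086), 3 of 7 against 31% of all genes. HDAC5 (-0.22 ± 0.10, 0.13), MEF2C (-0.48 ± 0.26, 0.21), HDAC4 (0.30 ± 0.15, 0.17) and HDAC7 (0.44 ± 0.15, 0.077) overlapped. Set side by side, the 2 HDAC6 lines had HDAC9 values of -0.74 (6CD1m) and -0.49 (6CD2m) and HDAC4 values of 0.30 and -0.51 relative to the same WT libraries.

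WT cells treated for 14 days with Tubastatin A or PCI-34051 differ, by their labels, in the inhibitor and its dose (1 µM and 5 µM). No member passed in edgeR (0.42% of all genes did) or in DESeq2, 3 members were at an unadjusted p below 0.05, and 5853 of all genes were. MEF2C (0.82 ± 0.26, adjusted p = 0.061), HDAC4 (-0.47 ± 0.15, 0.056) and HDAC7 (-0.44 ± 0.15, 0.078) had the largest log2 differences, given as Tubastatin A minus PCI-34051. HDAC9 was at 0.23 ± 0.12 (0.2), MEF2A at 0.26 ± 0.13 (0.18), MEF2D at -0.15 ± 0.08 (0.2) and HDAC5 at -0.09 ± 0.09 (0.54). With GC offsets HDAC9, MEF2D and HDAC5 had the opposite sign (-0.01, 0.03 and 0.17), so no direction is given for them. HDAC4, MEF2C and MEF2D did not overlap between the groups, 3 of 7 against 25.9% of all genes. These tests did not pair the libraries, although same-numbered ones deviated together (r of 0.505, 0.235 and 0.169). HDAC4 was lower on Tubastatin A in each same-numbered pair (24.0, 32.1 and 32.6 against 33.6, 44.2 and 45.2 CPM). A paired fit of these 6 libraries alone was not run, so differences within pairs were not tested.

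Over the 15 libraries the log2 CPM of HDAC9 and MEF2A had a Pearson r of 0.932, that of HDAC5 and MEF2D 0.929 and that of HDAC4 and HDAC7 0.910. HDAC9 and MEF2D had 0.863, whereas HDAC4 had -0.22 with HDAC9 and 0.04 with MEF2D. Both genes of each leading pair lie on the same side of the median GC content, and the points share libraries whose dependence on GC differs, so these values are descriptions. Among 12094 protein-coding genes, those most like HDAC5 were RUNX3 (r of 0.988), FMNL3 and PER1, and those most like MEF2D were FMNL3 (0.986), PMEPA1 and PDZRN3. RUNX3 is a transcription factor, PER1 a circadian clock gene and FMNL3 a formin that builds actin filaments. HDAC9 was nearest to MALT1, KDSR and FAM129A and MEF2A to ZNF217, SNTB2 and KDSR. HDAC7 was nearest to KRI1, PPP1R37 and CCDC130, all on chromosome 19, and HDAC4 to STK36, EVC and UBE2O. MEF2C, the least expressed, had the lowest values (0.929 for ZNF100, 0.927 for YES1 and 0.923 for LEPR). Each of these most alike genes lay on the same side of the median GC content as its member, so these values too are descriptions.

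The products that class IIa deacetylases and MEF2 work with were counted by list. Of 15 genes known as MEF2 targets in other cells, 10 were tested, and the muscle genes CKM, MYOG and DES and SLC2A4 and MMP10 were below the filter. In 8CDm cells 4 of the 10 were higher than in WT cells on PCI-34051 (4.69% of all genes were) and none passed as lower (6.27% of all genes), with JUN at -0.41 (adjusted p = 0.01) and KLF4 at -0.69 (0.013). DESeq2 called 5 of the 10, and 8 were at an unadjusted p below 0.05, with a median log2 difference of 0.94 over the 10 against -0.04 over all genes. The 8CDm libraries belong to the contrast known when the genes were chosen. The list too was chosen with earlier results of these data known, so nothing is read from these counts or the median. NR4A1 (also called NUR77), an immediate early nuclear receptor, had 16.3, 16.5 and 16.4 CPM in 8CDm and 4.0, 6.13 and 4.90 in WT cells on PCI-34051. Its log2 fold change was 1.71 ± 0.20 (edgeR adjusted p = 1.5e-05). NR4A2 had 22.0, 23.5 and 22.7 CPM against 10.5, 7.52 and 7.47 (1.41 ± 0.16, adjusted p = 1e-05). For both genes the 8CDm libraries were the 3 highest of all 15. EDN1, the precursor of the vasoconstrictor endothelin (1.54 ± 0.29, 0.00083), and PPARGC1A, a coactivator of mitochondrial biogenesis (1.304 ± 0.22, 0.0004), also passed, at means of 3.15 and 5.81 CPM in 8CDm cells. The EDN1 call was lost without any 1 library and with GC offsets (0.0012), and that of PPARGC1A in 5 of the 6 fits without 1 library (up to 0.0035).

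In 6CD1m relative to 8CDm cells NR4A1 (-1.84 ± 0.21, adjusted p = 8.4e-06), NR4A2 (-1.50 ± 0.16, 6.3e-06) and NR4A3 (-2.88 ± 0.48, 0.00033) were lower and JUN, a subunit of AP-1, higher (0.84 ± 0.11, 3.9e-05), so that 3 of the 10 were lower (5.07% of all genes) and 1 higher (5.99%). NR4A3 had 4 to 12 counts per 6CD1m library, and its call was lost in 5 of the 6 fits without 1 library (up to 0.0018). In the difference of differences NR4A1 (-1.96 ± 0.29, 0.00025) and NR4A2 (-1.71 ± 0.23, 0.00011) passed, 2 of 10 (2.84% of all genes were lower). With the replicate block NR4A1 did not pass (0.0011), nor did it under upper-quartile normalization. In 6CD2m cells targets passed in both directions. Relative to 6CD1m cells, KLF4 (2.93 ± 0.20, adjusted p = 4.9e-08), EDN1 (2.19 ± 0.28, 3.1e-05) and 1 other were higher, and NR4A2 (-1.53 ± 0.18, 1.3e-05), KLF2 (-1.52 ± 0.21, 6.1e-05) and 1 other lower, 3 of 10 each way (6.65% of all genes were higher and 6.54% lower). KLF4, a pluripotency and epithelial factor, had 27.8, 27.2 and 28.3 CPM in 6CD2m libraries and at most 6.13 in any other. Relative to WT cells on Tubastatin A 3 targets were also higher (4.61% of all genes) and 3 lower (7.22%), led by KLF4 (2.61 ± 0.19, 9.1e-08), EDN1 (2.25 ± 0.28, 1.9e-05), KLF2 (-2.11 ± 0.21, 2.3e-06) and NR4A2 (-1.82 ± 0.18, 1.7e-06). No target passed in edgeR between the WT groups (2 at an unadjusted p below 0.05, 2 in DESeq2) or in 6CD1m against WT cells (3 and 0). Of all 19535 genes, 0.42% and 0.793% passed there, and 5853 and 6248 were at an unadjusted p below 0.05. As the 8CDm and 6CD2m libraries belong to the contrast known when the genes were chosen, nothing is read from the counts of targets in them.

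**Figure D4:**
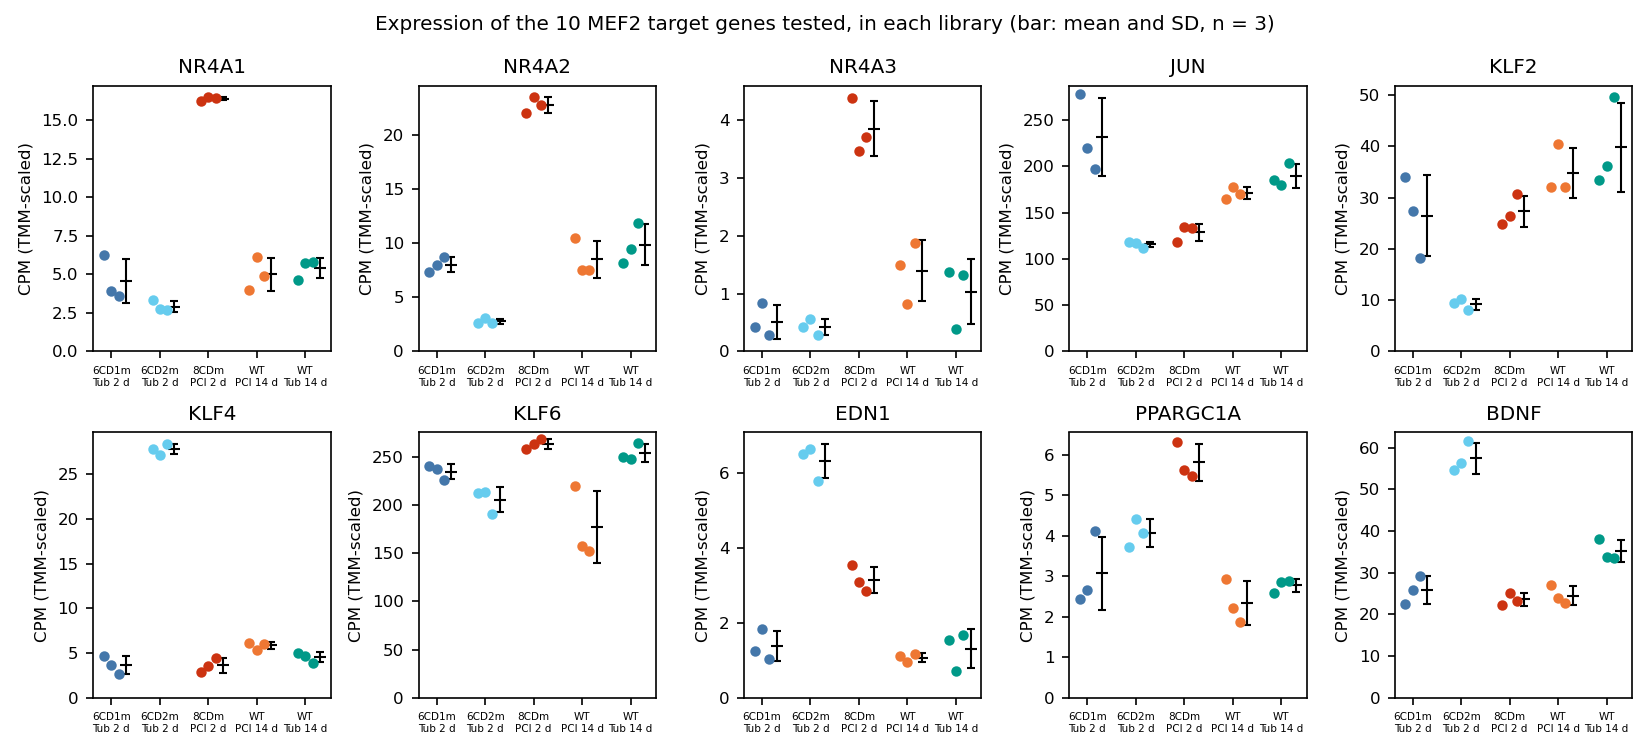
CPM on TMM-scaled libraries (linear axes from 0) of the 10 MEF2 target genes that passed the filter, with 1 point per library and the mean and SD of each group (n = 3). NR4A1 was at 16.3 to 16.5 CPM in 8CDm libraries and at most 6.23 elsewhere, and KLF4 at 27.2 to 28.3 CPM in 6CD2m libraries.

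Of the MEF2 family and its cofactors, 14 of 14 were tested. EP300, the acetyltransferase that MEF2 recruits when class IIa deacetylases are absent, was lower in 6CD2m than in 6CD1m (-0.89 ± 0.08, adjusted p = 8.4e-07) and WT cells on Tubastatin A (-0.89 ± 0.08, 7.4e-07). It had 89.0, 90.3 and 93.7 CPM in 6CD2m libraries and 160 or more in every other library. NFATC2, a calcineurin-dependent partner of MEF2, was also lower in both (-1.60 ± 0.29, 0.00058, and -2.14 ± 0.28, 3.4e-05), with 10 to 26 counts per 6CD2m library. The first of these was lost in 5 of the 6 fits without 1 library (up to 0.0046). CABIN1, a MEF2 corepressor, was lower in 8CDm than in WT cells on PCI-34051 (-0.64 ± 0.11, 0.00048), which was lost with GC offsets (-0.32, 0.0023) and in 5 of the 6 fits without 1 library. No other gene of the list passed in these 3 comparisons. In the remaining 4, 0 passed in edgeR, where 3 to 7 genes were at an unadjusted p below 0.05, and DESeq2 called 2 in 6CD1m against 8CDm cells and 1 in the difference of differences. Of all genes, 13.2%, 11.8% and 11% passed in the first 3 comparisons, in the order named. In the remaining 4, 0.42% to 11.1% of all genes passed and 5853 to 9364 of 19535 were at an unadjusted p below 0.05.

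Of 18 kinases that act on class IIa deacetylases 16 were tested, CAMK2A and CAMK2B being below the filter. CAMK1 was lower in 8CDm than in WT cells on PCI-34051 (-1.32 ± 0.14, adjusted p = 4.8e-06) and CAMK1D higher (0.97 ± 0.14, 9.5e-05). CAMK1 had 4.90, 4.77 and 4.08 CPM in 8CDm libraries and 11.3 to 18.4 in all others. CAMK1D had 22.9, 21.7 and 22.0 CPM in 8CDm libraries and 6.90 to 16.3 elsewhere. Both are calcium- and calmodulin-dependent kinases, and they moved in opposite directions. In 6CD1m relative to 8CDm cells CAMK1 was higher (1.97 ± 0.14, 7.6e-08) and CAMK1D (-1.32 ± 0.14, 6.4e-06), SIK1 (-0.97 ± 0.14, 9.9e-05) and SIK2 (-0.62 ± 0.09, 6.6e-05) lower, and the difference of differences passed for CAMK1 (1.66 ± 0.19, 2.5e-05) and CAMK1D (-1.78 ± 0.20, 2.2e-05). The CAMK1 value there fell to 1.17 with GC offsets and did not pass (0.0039). In 6CD2m cells CAMK2G was lower than in 6CD1m (-0.62 ± 0.08, 3.3e-05) and SIK1 higher (0.74 ± 0.14, 0.00084, lost in 5 of 6 fits without 1 library, up to 0.0048). CAMK2D (-1.17 ± 0.14, 9.6e-06), CAMK2G (-0.56 ± 0.08, 8.2e-05) and SIK3 (-0.47 ± 0.08, 0.00028, lost without any 1 library) were lower in 6CD2m than in WT cells on Tubastatin A. Of the 16 kinases, 2 passed in 8CDm against WT cells (11% of all genes) and 4 in 6CD1m against 8CDm cells (11.1%). In 6CD2m cells 2 passed against 6CD1m (13.2% of all genes) and 3 against WT cells (11.8%). The difference of differences had 2 (5.42%). Nothing is read from these counts. Between the WT groups and in 6CD1m against WT cells 0 kinases passed in edgeR (12 and 7 at an unadjusted p below 0.05, 1 and 2 in DESeq2). Over all 19535 genes 0.42% and 0.793% passed there, and 5853 and 6248 were at an unadjusted p below 0.05.

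The 14-3-3 genes (7 of 7 tested) and the deacetylases HDAC1, HDAC2, HDAC10 and HDAC11 (4 of 4 tested) had 0 genes past the threshold in edgeR in the 6 comparisons and the difference of differences. Depending on the comparison, 1 to 5 of the 14-3-3 genes and 1 to 3 of these deacetylases were at an unadjusted p below 0.05, and DESeq2 made 1 and 2 calls over the 7 tests together. Over all genes 0.42% to 13.2% passed in edgeR in these tests, and 5853 to 9576 of 19535 were at an unadjusted p below 0.05. The median log2 difference of the 14-3-3 genes was 0.35 between the WT groups, 0.52 in 6CD2m relative to 6CD1m, 0.11 in 6CD2m and -0.41 in 6CD1m relative to WT, 0.37 in 8CDm relative to WT and -0.35 in 6CD1m relative to 8CDm cells, where that of all genes was between -0.05 and 0.05.

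Genes next to the members were examined to see whether a member stood alone at its locus. For each member the 3 nearest tested protein-coding genes on either side were taken, leaving out genes that overlap it. In 8CDm relative to WT cells on PCI-34051, 0 of the 6 neighbours of HDAC5 passed in edgeR (4 at an unadjusted p below 0.05, 2 in DESeq2), at log2 differences from -0.80 to 0.61. Of the 6 neighbours of MEF2D 0 passed (4 and 0), at -0.51 to 0.20, where MEF2D itself was at 0.61. Over all 19535 genes 11% passed in this comparison and 8955 were at an unadjusted p below 0.05, so nothing is read from these counts. HDAC9 and its nearest neighbour on the far side, TWIST1, 18575 bases away, had opposite signs. TWIST1, a mesenchymal transcription factor, was at -0.81 ± 0.15 (edgeR adjusted p = 0.00078), a call that was lost with GC offsets (-0.54, 0.02) and without any 1 library. The other 5 neighbours of HDAC9 were at positive log2 differences and did not pass.

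TWIST2, the paralogue of TWIST1, is the nearest tested neighbour of HDAC4, 137625 bases away. In 6CD2m relative to 6CD1m cells HDAC4 (-0.80) and TWIST2 (-1.48 ± 0.12, adjusted p = 4e-07) were both lower, as was TWIST1 (-1.49 ± 0.16, 5.1e-06), while HDAC9 was not (0.25). Relative to WT cells on Tubastatin A TWIST1 (-1.12 ± 0.16, 6.9e-05) and TWIST2 (-1.10 ± 0.12, 6.3e-06) were lower as well, in 6CD2m cells. With GC offsets these 4 values ran from -1.23 to -0.99 and all passed. Of the 6 neighbours of HDAC4, 3 passed in each of these comparisons, all lower in 6CD2m cells, where 6.54% and 7.22% of all genes were lower, and median log2 differences of the 6 were -0.54 and -0.49. Against 6CD1m cells MYEOV2 and GPC1 did not pass with GC offsets (-0.51 and -0.14) and each was lost in 5 of the 6 fits without 1 library. Against WT cells ASB1 (-0.65, adjusted p = 0.00025) was lost without any 1 library (up to 0.0022). VDR, the vitamin D receptor gene, lies 8405 bases from HDAC7 and was lower in 8CDm than in WT cells on PCI-34051 (-1.53 ± 0.10, 5.4e-08). HDAC7 was at -0.35 there and did not pass. ALDH1A3 (an enzyme of retinoic acid synthesis), 1161248 bases from MEF2A, was lower in the same comparison (-3.81 ± 0.18, 1.3e-09) with MEF2A at 0.58. The intermediate filament gene SYNM, 429824 bases from MEF2A, was higher in 6CD2m than in 6CD1m cells (1.88 ± 0.10, 6.7e-09), with MEF2A at 0.21. IQGAP3, 24577 bases from MEF2D, was lower in that comparison (-1.70 ± 0.11, 3.9e-08), with MEF2D at 0.01. RASA1, 1325186 bases from MEF2C, was higher in 8CDm than in WT cells on PCI-34051 (0.83 ± 0.14, 0.00031, lost in 5 of 6 fits without 1 library, up to 0.0031).

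**Figure D5:**
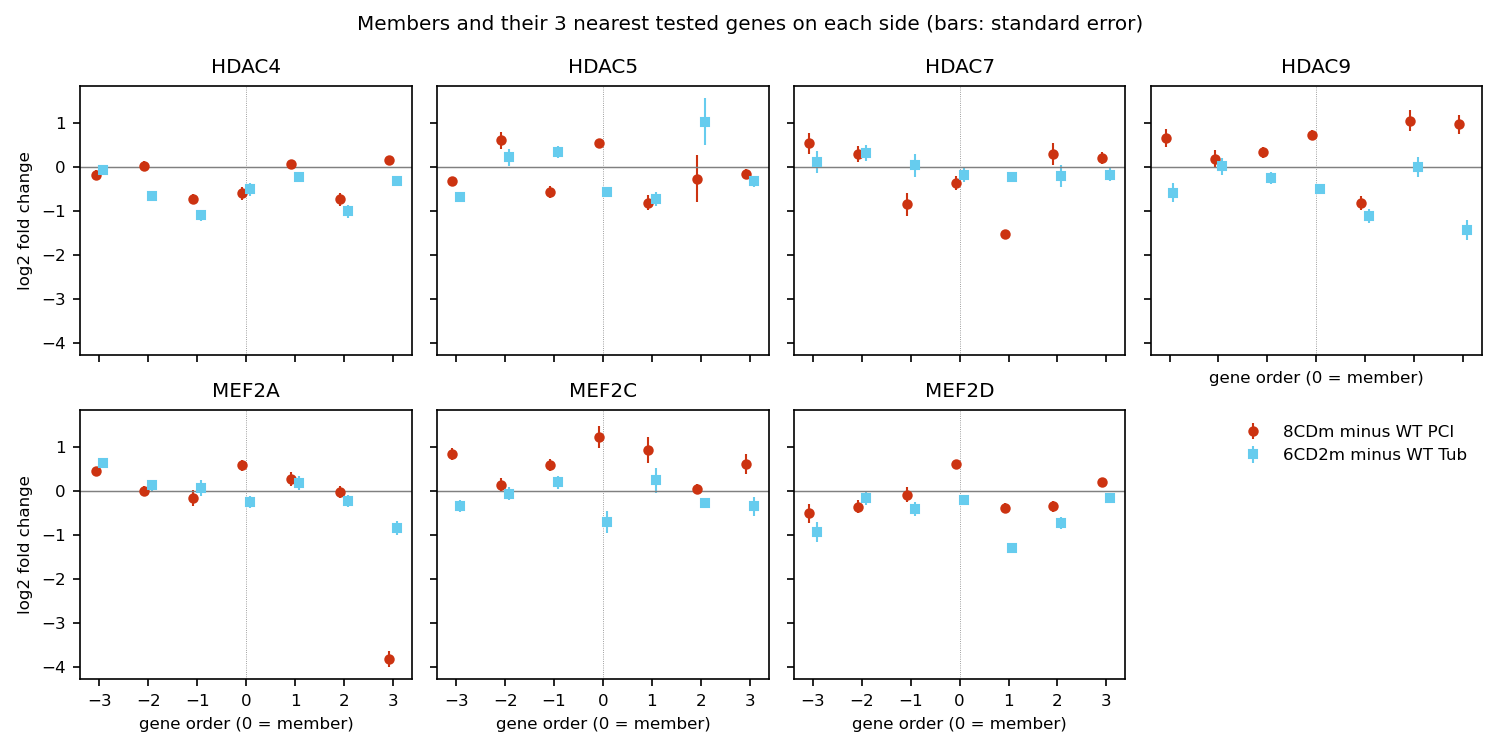
Log2 fold change, with standard error, of each member (position 0) and of the 3 nearest tested protein-coding genes on each side (positions -3 to 3, in order of coordinate, not to scale in distance), for 8CDm minus WT on PCI-34051 (red circles) and 6CD2m minus WT on Tubastatin A (blue squares). MEF2D at 0.61 in 8CDm cells stands above its 6 neighbours (-0.51 to 0.20), and ALDH1A3, at position 3 of MEF2A, is at -3.81.

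Several members overlap a gene on the opposite strand, and whether the counting used strand is not given in the sources used here. SLC48A1 (315 to 658 counts per library) and the antisense gene RP5-1057I20.4 (4 to 57) overlap HDAC7, and LYSMD4 (69 to 122) overlaps MEF2A. MEF2C-AS1 had 0 to 12 counts. Without strand, reads in the shared parts cannot be assigned, so the levels of HDAC7, MEF2A and MEF2C carry that uncertainty. Opposite-strand genes that overlap HDAC4, HDAC5 and HDAC9 had at most 4 counts in any library.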

How the data were processed

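RNA from 15 samples of inhibitor-treated HT1080 cells was rRNA-depleted and sequenced as paired reads by the authors, who deposited expected counts (estimated reads per gene, not normalized) for 60675 genes. The submitters' processing notes name Trimmomatic 0.39, Bowtie2 2.4.5, RSEM 1.3.3, DESeq2 1.38.2 and GRCh38. Gene annotation and strand setting are not given in the sources used here. Fractional values (21.8% of those above 0) were rounded. Reads that RSEM shares between similar genes are estimates. Depth limits MEF2C most (25 to 136 counts), and intervals of counting error were not needed for the others.

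Groups and replicate numbers came from the sample labels. Whether replicates are separate cultures rests on the study's text; otherwise p-values measure only the spread between these samples. Genes were filtered with edgeR's default filter (19535 kept), scaled by TMM, and compared in 1 model of all 15 libraries with a mean per group (R 4.3.3, edgeR 4.0.16, limma 3.58.1), using the quasi-likelihood test and Benjamini-Hochberg adjustment over all genes tested at 0.001, the study's rate. The model was tested on simulated counts. Positions, lengths and GC content came from GENCODE 29, which matched 57055 genes, and promoters from RefSeq (GRCh38.p14) for all members except HDAC5.

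The members, the 5 lists (kinases, 14-3-3 proteins, MEF2 family and cofactors, MEF2 targets, other deacetylases) and the tests were chosen with earlier results of these data known. A further list is not reported here. Named genes were the members, at most 4 genes per list and comparison (past the threshold, largest difference) with those below the filter, 3 tested neighbours per side, overlapping opposite-strand genes, the 3 most alike genes by Pearson r, and the edited genes. Alternatives were upper-quartile scaling, DESeq2 1.42.0, TMM computed without genes of mitochondrial or small RNAs, no filter, at least 10 counts in every library, a rate of 0.05, a fit limited to the compared libraries, a block for the replicate number, GC offsets (a smooth curve of log2 ratio to the mean library on GC content, span 0.3) with and without the block, and leaving out each library. Same-numbered WT libraries on the 2 inhibitors deviated together (r of 0.505, 0.235 and 0.169), so their numbers were taken as paired, from the data, and those of other comparisons were not. The main fit did not use this pairing, and no fit paired the WT libraries alone. In figures and text CPM are relative to the TMM-scaled library.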

Additional observations from a re-analysis of the deposited data

Results flagged for a closer look

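Results are listed here because 2 groups, or 2 differences from WT cells, differed by a test of the difference itself. The difference between a mutant line on 2 days of inhibitor and WT cells on 14 days differed between 6CD1m cells on Tubastatin A and 8CDm cells on PCI-34051 for HDAC9 (-1.48 on the log2 scale, edgeR adjusted p = 2e-05), MEF2A (-1.05, 0.0007), MEF2D (-0.82, 8.8e-05) and HDAC5 (-0.77, 0.00084). Mutant line and inhibitor change together between these 2 differences and cannot be told apart. With the replicate block MEF2A (adjusted p = 0.0022) and HDAC5 (0.0032) did not pass. High HDAC5 and HDAC9 in these 8CDm libraries were already known, so these values are not independent of how the genes were chosen. HDAC4 differed between the 2 HDAC6 lines on Tubastatin A (6CD2m minus 6CD1m, -0.80, 0.00065), in a direct comparison of these lines. It was the only 1 of 7 members past the threshold there, where 13.2% of all genes passed, so nothing is read from the count. The HDAC4 call was kept in 1 of the 6 fits without 1 library. It was lost under upper-quartile normalization, with at least 10 counts in every library and in a fit of the compared libraries alone. The replicate block also removed it (edgeR adjusted p = 0.0014).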

How the results depend on the processing

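With 3 libraries a group, at a rate of 0.001, many calls on members lay near the threshold. Numbers of members past it are given in the order 6CD2m vs 6CD1m, 6CD2m vs WT, 6CD1m vs WT, 8CDm vs WT, 6CD1m vs 8CDm and the difference of differences, and were 1, 1, 0, 3, 4 and 4. A rate of 0.05 gave 3, 4, 2, 6, 6 and 7. Leaving out 1 library gave 0 to 1, 0 to 0, 0 to 0, 1 to 3, 3 to 4 and 2 to 5. With the replicate block the numbers were 0, 0, 0, 2, 4 and 2. The replicate numbers pair the libraries of the 2 WT groups, whose comparison had 0 members with and without the block. The block gives each number the same effect in all 5 groups, so it cannot show what pairing the WT libraries alone would give. No such fit was run. In the difference of differences, where HDAC5 and MEF2A were lost, the block also joined 6CD1m and 8CDm libraries by number. Whether it belongs there was not tested. In the other comparisons the libraries share only a number. Upper-quartile scaling gave 0, 0, 0, 3, 4 and 2, and a minimum of 10 counts 0, 0, 0, 3, 4 and 3. In 8CDm vs WT both had MEF2A past the threshold in place of HDAC5. DESeq2 gave 1, 1, 1, 5, 4 and 6, no filter 2, 1, 1, 5, 4 and 3, and a fit of only the libraries compared 0, 1, 0, 2, 2 and 2. GC offsets gave 1, 2, 1, 2, 4 and 4, and with the block 1, 1, 0, 2, 4 and 3. TMM without mitochondrial or small RNA genes left all 6 numbers as they were. Signs turned only for members far from the threshold. In WT cells HDAC5 went to 0.17 with GC offsets, with and without the block, HDAC9 to -0.0081 (-0.0076 with the block) and MEF2D to 0.025, and MEF2D in 6CD2m vs 6CD1m to -0.027 (upper quartile) and -0.025 (10 counts). The cause was not tested. No other value recomputed, for members or named genes, changed sign under any alternative or without any 1 library.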
